A study of Homo sapiens with 11 samples.

Results

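S100 calcium-binding protein genes were followed in tumour cells that received miR-365a-3p. The 10 genes S100A2, S100A4, S100A6, S100A8, S100A9, S100A10, S100A11, S100A13, S100A14 and S100A16 were taken by symbol from a table with 31325 rows, 1 row per symbol, and all 10 were found. They encode very small proteins and were chosen as a family with different baseline levels in breast and ovarian tumour lines. The study asked how miRNAs perturb cancer pathways, and these arrays followed mRNA after transfection of 1 of them. MDA-MB-231 cells, a basal-like human breast cancer line, were measured on 3 arrays with a miR-365a-3p mimic and on 3 with a control miRNA. SKOV3 cells, a human ovarian cancer line, were measured on 3 arrays with the mimic and on 2 with the control miRNA. The labels give 48 h of treatment for all 11 arrays, the series description gives 24 h, and the paper names SKOV3.ip1, a derivative of the line the labels name. Each line stands for 1 tumour. No source used here says that the replicates came from separate cultures, so p-values measure only the spread between these arrays, which may be technical. The arrays measure bulk RNA, in which fewer cells that express a gene and less of its mRNA per cell cannot be told apart.

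S100 proteins are small proteins with a pair of EF-hand loops that work mostly as dimers. Binding of calcium opens a surface on the dimer that takes up a target protein, and members differ in which targets they bind. Inside cells they act on the cytoskeleton, annexins and membranes, and several are released and bind receptors such as AGER (RAGE) and TLR4. In carcinomas the family is known for uneven expression between tumours, with S100A4 linked to motility and S100A8 with S100A9 to inflammation.

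Expression of S100A10 and S100A11 fell with miR-365a-3p in both cell lines, S100A10 by 1.86 and 1.78 and S100A11 by 1.31 and 1.15 on the log2 scale in MDA-MB-231 and SKOV3 cells, respectively. S100A4 and S100A14 rose in MDA-MB-231 cells and S100A2 rose in SKOV3 cells, each by 0.54 or less, and the first and second of these rises were not called on the deposited values. The other 5 genes did not pass the test in either line. The largest difference between control means of the lines was that of S100A4, at -5.62 on the log2 scale (MDA-MB-231 minus SKOV3).

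The miRNA that was added, and the stretches before the starts of the 2 genes that fell, are shown with that of S100A6, a highly expressed member for which no change was called. Sequences are from RefSeq, assembly GRCh38.p14. The mature miRNA lies at chr16:14309340-14309361 on the plus strand, has 22 bases and is given 5′ to 3′ with its seed, bases 2 to 8, in capitals. It is identical to the mature miR-365b-3p at chr17:31575478-31575499, and no other mature human miRNA in the table carries this seed. Each promoter window holds the 250 bases before the annotated start, on the minus strand, with GGGCGG, the core of a GC box, in capitals where it was found on the strand shown or, as its reverse complement, on the other strand.
hsa-miR-365a-3p: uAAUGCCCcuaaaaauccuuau
S100A10 promoter, chr1:151993860-151994109: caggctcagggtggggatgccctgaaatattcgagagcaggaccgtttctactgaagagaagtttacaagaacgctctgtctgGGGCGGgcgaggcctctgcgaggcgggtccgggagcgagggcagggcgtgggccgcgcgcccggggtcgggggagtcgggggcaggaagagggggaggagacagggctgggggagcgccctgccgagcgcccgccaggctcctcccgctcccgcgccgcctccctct
S100A11 promoter, chr1:152037005-152037254: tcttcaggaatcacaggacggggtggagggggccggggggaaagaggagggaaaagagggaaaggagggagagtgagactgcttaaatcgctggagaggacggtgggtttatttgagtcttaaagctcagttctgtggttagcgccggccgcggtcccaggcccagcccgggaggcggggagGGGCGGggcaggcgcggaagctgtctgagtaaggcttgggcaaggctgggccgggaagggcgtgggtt
S100A6 promoter, chr1:153535992-153536241: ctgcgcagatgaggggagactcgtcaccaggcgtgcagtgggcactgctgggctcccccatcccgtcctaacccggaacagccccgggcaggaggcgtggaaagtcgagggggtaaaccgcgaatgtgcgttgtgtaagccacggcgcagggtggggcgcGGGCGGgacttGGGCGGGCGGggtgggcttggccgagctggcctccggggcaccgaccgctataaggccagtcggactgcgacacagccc

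The windows of S100A10 and S100A6 each hold 24 CpG dinucleotides and that of S100A11 holds 15, against a median of 11 over 35116 promoter windows of 27305 genes. GGGCGG on either strand occurs once in the windows of S100A10 and S100A11 and 3 times, 2 of them overlapping, in that of S100A6. It is found in 42.6% of all windows. TATAAA, the TATA box core, is absent from these 3 windows and occurs in 10.7% of all windows, and among the other genes it was found for S100A4, S100A8, S100A9 and S100A13. Of all windows, 42.9% hold 15 or more CpG. S100A13 has 15, 10 and 8 in the windows of its 3 starts, S100A4 has 7, and the windows of S100A2, S100A8, S100A9, S100A14 and S100A16 hold between 1 and 6. These letters are a description of the windows only.

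The deposited values had a lower 75th percentile on the miR-365a-3p arrays, at 7.56 to 7.65 against 7.86 to 7.93 in MDA-MB-231 cells and 7.67 to 7.80 against 7.98 to 8.04 in SKOV3 cells. The values were therefore brought to 1 distribution across arrays, and all values given here are normalized log2 values, a level, unless they are called deposited or a difference. The median array signal is crowded near the bottom of the scale, and values under 7.43, the 60th percentile of all values, are called the floor band. As a check of the labels, ERBB2, a receptor amplified in SKOV3, was at 10.91 and 10.82 on the SKOV3 control arrays and at 7.53 to 7.67 on the MDA-MB-231 control arrays. Over the marker lists, 5 of the 6 SKOV3 markers had a higher control mean in SKOV3 cells, with KRT18 the exception (MDA-MB-231 minus SKOV3 0.113). Only 3 of the 6 MDA-MB-231 markers were higher in MDA-MB-231 cells, and SPARC (-1.23), MSN (-0.55) and CAV1 (-0.30) went against their list. With miR-365a-3p, AXL (-3.80 and -2.435), CD44 (-2.52 and -1.43) and MSN (-1.62 and -1.12) of this list fell in MDA-MB-231 and SKOV3 cells, respectively. Of the SKOV3 markers KRT7 rose in both lines (0.98 and 1.27). Over all rows 5.39% fell and 5.76% rose in both. With each line fitted alone the SKOV3 falls of AXL and MSN were not called (limma adjusted p = 0.0648 and 0.0895). In the same fit ERBB2 fell by 1.575 in SKOV3 cells (adjusted p = 0.00842, not called without either SKOV3 control array, with adjusted p = 0.0641 and 0.0686).

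Of the 10 S100 genes, 2 rose and 2 fell in MDA-MB-231 cells, where 14.4% of all rows rose and 11.7% fell. In SKOV3 cells 1 rose and 2 fell, where 7.25% of all rows rose and 7.11% fell. No member rose in both lines, against 5.76% of all rows, and 2 fell in both, against 5.39%. The response of no member differed between lines, against 2.54% of all rows. All of these are limma calls at a Benjamini-Hochberg adjusted p under 0.05 over the whole table. The median log2 fold change of the members was 0.105 in MDA-MB-231 and 0.114 in SKOV3 cells, and over all rows it was 0.006 and 0.007. Of all 31325 rows only 17569 were above the floor band on any array. Over rows with a mean above 8 the median was 0.17 and 0.153, so the members were not shifted upward beside brighter rows. The numbers are small, and apart from S100A10 and S100A11 the family is described gene by gene. Every member was above the floor band on at least 1 array.

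**Figure D1:**
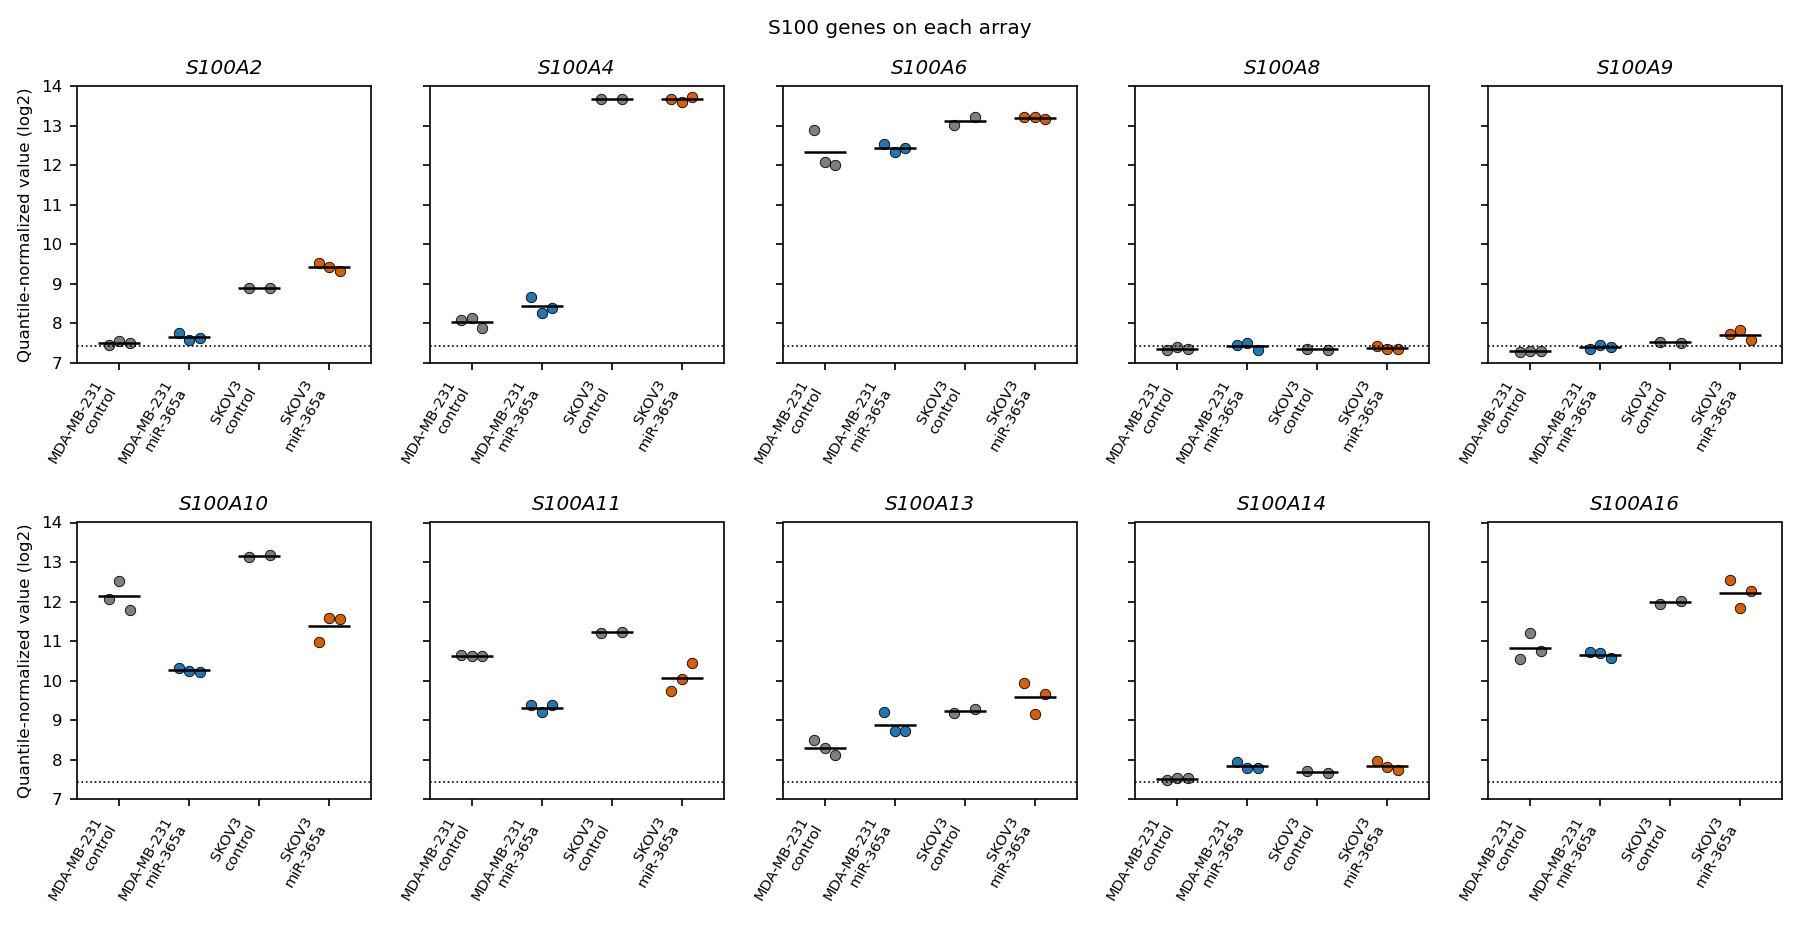
Quantile-normalized log2 values of the 10 S100 genes on each of the 11 arrays, in 4 groups; points are arrays, bars are group means and the dotted line at 7.43 marks the floor band. S100A10 and S100A11 are lower on all miR-365a-3p arrays of each line, the control means of S100A4 differ by -5.62 (MDA-MB-231 minus SKOV3), and S100A8 lies at or near the floor band on all arrays (7.32 to 7.51).

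S100A10, also called p11, has lost the ability to bind calcium, sits in a tight complex with annexin A2 and tethers it to membranes and to plasminogen. In MDA-MB-231 cells it was at 12.06, 12.52 and 11.79 with the control miRNA and at 10.33, 10.25 and 10.23 with miR-365a-3p. Every miR-365a-3p array was thus below every control array, and the miR-365a-3p arrays lay closer together (SD 0.0567) than the controls (SD 0.370, n = 3 each). The log2 fold change was -1.86 (SE 0.200, 3.62-fold lower, limma adjusted p = 0.000256).

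In SKOV3 cells S100A10 was at 13.14 and 13.17 with the control miRNA and at 10.99, 11.59 and 11.57 with miR-365a-3p. The groups did not overlap, and the log2 fold change was -1.78 (SE 0.224, 3.42-fold lower, limma adjusted p = 0.00118). The response differed by -0.08 between the lines (SE 0.301, limma adjusted p = 0.961), so the difference is within its error and is not shown to be absent. Ordered by group mean, S100A10 was lowest in MDA-MB-231 cells with miR-365a-3p at 10.27, then in SKOV3 cells with miR-365a-3p at 11.38, in MDA-MB-231 controls at 12.13 and in SKOV3 controls at 13.16. Arrays of neighbouring groups in this order did not overlap.

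S100A11, which binds annexin A1 and annexin A2 and takes part in repair of the plasma membrane, was at 10.64, 10.63 and 10.63 on the MDA-MB-231 control arrays. With miR-365a-3p it was at 9.39, 9.21 and 9.38, all below the controls. The log2 fold change was -1.31 (SE 0.144, 2.47-fold lower, limma adjusted p = 0.000282).

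In SKOV3 cells S100A11 was at 11.21 and 11.23 with the control miRNA and at 9.74, 10.04 and 10.44 with miR-365a-3p. The fall was seen on all 3 arrays but varied among them (SD 0.348), with replicate 3 highest, and the log2 fold change was -1.15 (SE 0.161, 2.22-fold lower, limma adjusted p = 0.00195). With each line fitted alone the SKOV3 call remained at an adjusted p of 0.0480. The lines differed in response by -0.16 (SE 0.215, limma adjusted p = 0.858). Both genes remained called as falling in both lines under each of the 19 alternative settings. The reference table lists 10 pseudogenes of S100A11 and none of S100A10, and probe sequences, which could show shared hybridization, were not used here.

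S100A2, a mostly nuclear protein of epithelial cells, rose in SKOV3 cells. It was at 8.89 on both SKOV3 control arrays and at 9.53, 9.43 and 9.33 with miR-365a-3p, without overlap. The log2 fold change was 0.54 (SE 0.0645, 1.45-fold, limma adjusted p = 0.000927), and it was called under all 19 alternatives.

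In MDA-MB-231 cells S100A2 was just above the floor band, at 7.45, 7.55 and 7.51 in controls and 7.75, 7.58 and 7.62 with miR-365a-3p, and the difference of 0.145 (SE 0.0577, limma adjusted p = 0.110) was not called and was -0.04 on the deposited values and -0.01 with arrays centred on their medians. The response in MDA-MB-231 minus that in SKOV3 cells was -0.395 (SE 0.0865, limma adjusted p = 0.0562). This difference was called under 6 of 18 alternatives, among them the deposited values, where it was -0.405 (adjusted p = 0.0190), and without replicate 1 of the MDA-MB-231 or replicate 3 of the SKOV3 miR-365a-3p arrays.

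S100A4, known as metastasin for its part in cell motility, binds non-muscle myosin IIA. In MDA-MB-231 cells it was at 8.09, 8.14 and 7.89 with the control miRNA and at 8.66, 8.26 and 8.40 with miR-365a-3p. The groups did not overlap, and the log2 fold change was 0.40 (SE 0.0991, 1.32-fold, limma adjusted p = 0.0158). This rise depended on the scaling, since it was 0.03 on the deposited values (adjusted p = 0.889) and 0.06 with arrays centred on their medians (adjusted p = 0.672), and it was not called without replicate 3 of the MDA-MB-231 control arrays (adjusted p = 0.0585).

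In SKOV3 cells S100A4 was at 13.67 and 13.66 in controls and at 13.68, 13.60 and 13.71 with miR-365a-3p, close to the top of the scale, whose highest deposited value per array ran from 13.45 to 14.53. The groups overlapped, and the log2 fold change was 0.01 (SE 0.111, limma adjusted p = 0.990). What the closeness to the top of the scale does to this difference was not tested.

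S100A14, an epithelial member that is also released and binds AGER, was at 7.49, 7.55 and 7.53 in MDA-MB-231 controls and at 7.95, 7.80 and 7.80 with miR-365a-3p. All miR-365a-3p arrays were above all controls, and the log2 fold change was 0.33 (SE 0.0592, 1.25-fold, limma adjusted p = 0.00353). On the deposited values it was 0.08 (adjusted p = 0.191), so this small rise near the floor band also depended on the scaling. In SKOV3 cells S100A14 was at 7.72 and 7.67 in controls and at 7.97, 7.83 and 7.75 with miR-365a-3p, a difference of 0.16 (SE 0.0661, limma adjusted p = 0.181) that was -0.09 on the deposited values.

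S100A13 takes part in the release of FGF1 and IL1A, which lack a signal peptide. In MDA-MB-231 cells it was at 8.50, 8.29 and 8.13 in controls and at 9.21, 8.73 and 8.73 with miR-365a-3p. The groups did not overlap, and the difference of 0.58 (SE 0.205, limma adjusted p = 0.0718) did not pass the test. It passed under 5 alternatives, among them array weights (0.546, adjusted p = 0.0290) and without the first or the second SKOV3 miR-365a-3p array (adjusted p = 0.0413 and 0.0231), while on the deposited values it was 0.245 (adjusted p = 0.442). In SKOV3 cells it was at 9.19 and 9.28 in controls and at 9.94, 9.16 and 9.67 with miR-365a-3p, with overlap and a difference of 0.36 (SE 0.230, limma adjusted p = 0.437).

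S100A6, or calcyclin, binds CACYBP and SUGT1, proteins of ubiquitin ligase complexes. It was among the brighter rows, at 12.90, 12.08 and 12 in MDA-MB-231 controls and at 12.54, 12.32 and 12.42 with miR-365a-3p. The first control array was above all others of the line, and the difference of 0.10 (SE 0.206, limma adjusted p = 0.829) became 0.385 (adjusted p = 0.00830) without it. In SKOV3 cells S100A6 was at 13.02 and 13.22 in controls and at 13.21, 13.21 and 13.16 with miR-365a-3p, and the difference of 0.07 (SE 0.231, limma adjusted p = 0.934) was within the spread. Cyclic loess turned both of these uncalled differences to just under 0, at -0.01 and -0.09.

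S100A16, a broadly expressed member with 1 working EF-hand, was at 10.55, 11.20 and 10.75 in MDA-MB-231 controls and at 10.72, 10.70 and 10.57 with miR-365a-3p. In SKOV3 cells it was at 11.94 and 12.01 in controls and at 12.54, 11.84 and 12.28 with miR-365a-3p. The groups overlapped in both lines, and the differences of -0.17 (SE 0.195, limma adjusted p = 0.651) and 0.24 (SE 0.218, limma adjusted p = 0.634) were not called.

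S100A8 and S100A9 form calprotectin, the abundant calcium-binding complex of neutrophils and monocytes. S100A8 was near the floor everywhere, between 7.32 and 7.51 on the 11 arrays, with differences of 0.06 in MDA-MB-231 (limma adjusted p = 0.444) and 0.04 in SKOV3 cells (limma adjusted p = 0.807). S100A9 was at 7.28 to 7.30 in MDA-MB-231 controls and 7.35 to 7.46 with miR-365a-3p, a difference of 0.11 (SE 0.0527, limma adjusted p = 0.187). In SKOV3 cells S100A9 was at 7.54 and 7.50 in controls and at 7.72, 7.82 and 7.59 with miR-365a-3p, without overlap, and the difference of 0.19 (SE 0.0589, limma adjusted p = 0.0653) was not called. It was called under cyclic loess, the filter on dim rows and the intensity trend, and without replicate 3 of the SKOV3 miR-365a-3p arrays (0.249, adjusted p = 0.0113). On the deposited values it was 0.02 (adjusted p = 0.866).

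Of 7 myeloid marker genes 3 were in the floor band on all arrays (PTPRC, ITGAM and MPO), and the log2 summed level of the list ran from 10.16 to 10.50 over all groups, 10.41 to 10.50 with miR-365a-3p and 10.30 to 10.33 in controls in MDA-MB-231, and 10.21 to 10.24 against 10.16 and 10.17 in SKOV3. In MDA-MB-231 cells 3 of the 7 rose (LYZ, CSF1R and AIF1), against 14.4% of all rows, and in SKOV3 cells 1 (AIF1), against 7.25%. None of these was called on the deposited values, where LYZ was 0.03, CSF1R -0.04 and AIF1 0.02 in MDA-MB-231 and AIF1 was 0.055 in SKOV3 cells, and none with arrays centred on their medians. Of 8 keratinocyte markers 5 were in the floor band on all arrays and none was called in either line. The part of these marker levels in the values of S100A8, S100A9 and S100A2 was not tested.

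**Figure D2:**
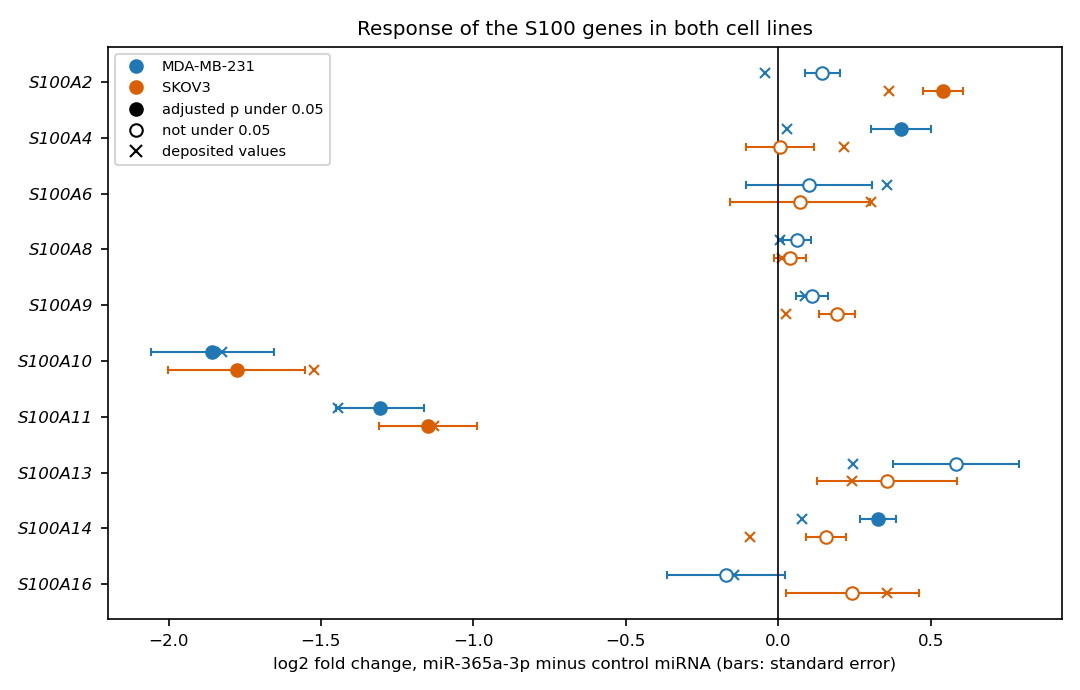
Log2 fold changes of the 10 S100 genes, miR-365a-3p minus control miRNA, in MDA-MB-231 (blue) and SKOV3 (orange) cells with standard errors; filled points have a limma adjusted p under 0.05 and crosses are the values from deposited data without further normalization. S100A10 (-1.86 and -1.78) and S100A11 (-1.31 and -1.15) lie far left in both lines with crosses close to them, and the crosses of S100A4 and S100A14 in MDA-MB-231 lie near 0.

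Baseline levels are a description, since the members were chosen with them in view, and no test is given. Between control arrays, 9 of the 10 genes had a lower mean in MDA-MB-231 than in SKOV3 cells. No share over all rows is given beside this count, so it is not read as a trait of the family. The difference, MDA-MB-231 minus SKOV3 on the log2 scale, was -5.62 for S100A4 (-5.22 on the deposited values), with the SKOV3 level close to the top of the scale so that no fold is given, and -1.38 for S100A2, 2.61-fold. It was -1.14 for S100A16, -1.03 for S100A10, -0.93 for S100A13, -0.79 for S100A6 and -0.59 for S100A11. It was -0.23 for S100A9, -0.17 for S100A14 and 0.02 for S100A8, genes near the floor in which a ratio is compressed. On miR-365a-3p arrays the S100A4 difference was -5.23, and the other members kept their sides, with the means of S100A14 nearly equal at a difference of -0.002. S100A10 and S100A11 thus kept a lower level in MDA-MB-231 than in SKOV3 cells with miR-365a-3p, by 1.11 and 0.749 in means.

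All 10 genes lie in the S100 cluster of chromosome 1q21, and S100A10 and S100A11 are neighbours at its edge. The gene table of assembly GRCh38.p14, used for names and order, lists 73 protein-coding genes from 5 before the first to 5 after the last S100 gene, of which 16 are S100 genes. Of the 57 others 53 were matched to a row by a current symbol or by an older symbol that belongs to 1 gene only, and 37 of these were in the floor band on all arrays, largely genes of the skin barrier. The row LOR, an older symbol of both LORICRIN and LOXL2, was left out of these counts and was also in the floor band. Of the 16 that were above it, MDA-MB-231 cells had 4 that rose and 1 that fell, and SKOV3 cells had 1 of each. Beside these counts, 14.4% of all rows rose and 11.7% fell in MDA-MB-231, and 7.25% and 7.11% in SKOV3 cells. SNAPIN, a vesicle fusion protein, rose by 0.85 and 0.65 in the respective lines (limma adjusted p = 0.000329 and 0.00448). INTS3, a subunit of the Integrator complex, changed by -0.83 and -0.84 (limma adjusted p = 0.000247 and 0.000871). Falls in both lines were thus at the first S100 genes of the cluster and at INTS3 on its far side, and in order between them no other gene above the floor band fell in either line.

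**Figure D3:**
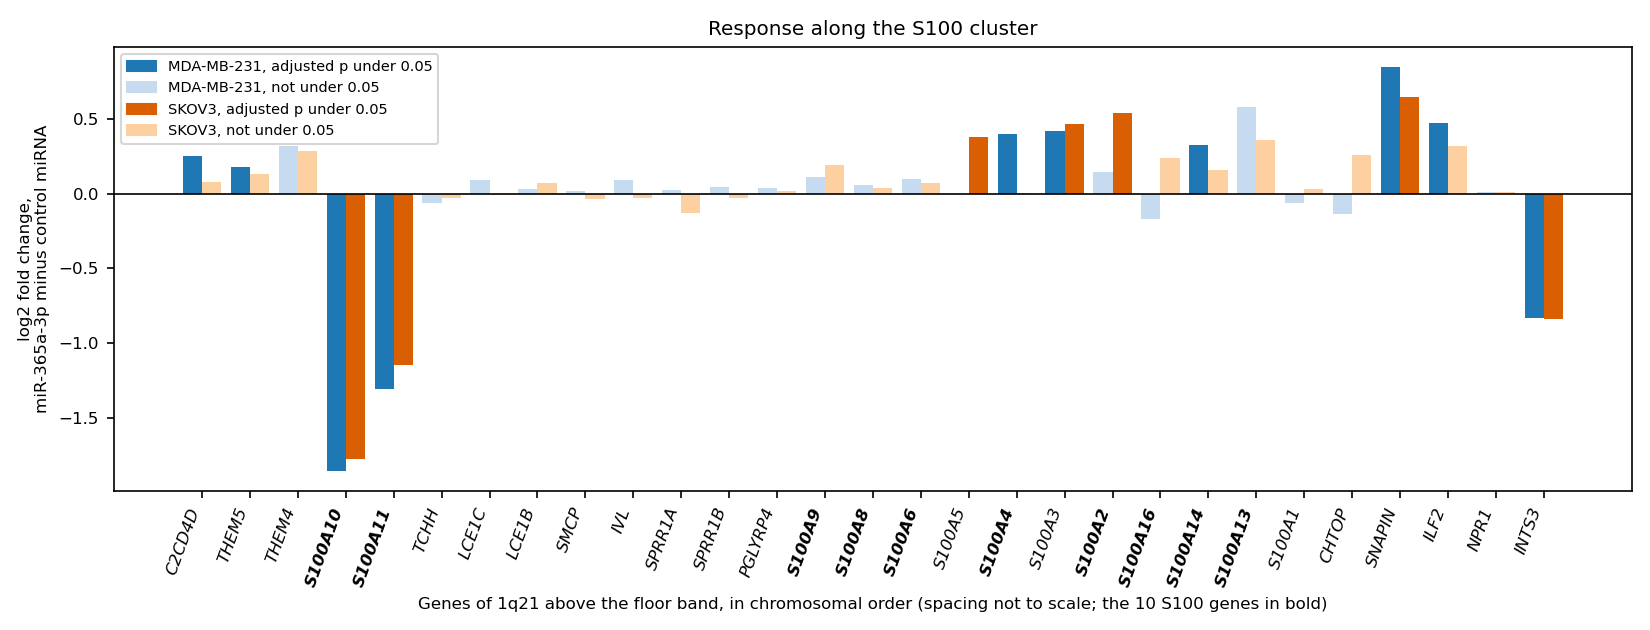
Log2 fold changes, miR-365a-3p minus control miRNA, of genes above the floor band in the 1q21 cluster in chromosomal order, for MDA-MB-231 (blue) and SKOV3 (orange) cells; strong colours have a limma adjusted p under 0.05 and spacing is not to scale. S100A10 and S100A11 stand beside each other as the deepest bars, and INTS3 (-0.83 and -0.84) is the other gene that fell in both lines.

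The other S100 genes were 10 in number, and 5 of them, S100A7, S100A7A, S100A12, S100B and S100G, were in the floor band on all arrays. In MDA-MB-231 cells 2 rose and in SKOV3 cells 2 rose, and none fell. The shares over all rows were 14.4% rising and 11.7% falling in MDA-MB-231, and 7.25% and 7.11% in SKOV3 cells. With so few genes these counts are not read as a result about the family. S100A3, a cysteine-rich member of hair cuticle, rose in both lines, from 7.56, 7.64 and 7.54 to 8.25, 7.90 and 7.87 in MDA-MB-231 cells (0.42, SE 0.0922, limma adjusted p = 0.00885) and from 9.37 and 9.44 to 9.81, 9.84 and 9.95 in SKOV3 cells (0.465, SE 0.103, limma adjusted p = 0.0175). On the deposited values the MDA-MB-231 rise was not called (adjusted p = 0.203), and without the first or second SKOV3 control array the SKOV3 rise was not (adjusted p = 0.121 and 0.0827). S100P, a member known from placenta and pancreatic cancer, rose from 7.30, 7.27 and 7.29 to 8.18, 7.85 and 7.76 in MDA-MB-231 cells (0.65, limma adjusted p = 0.000869) and was in the floor band in SKOV3 cells. S100A5 rose in SKOV3 cells by 0.38 (limma adjusted p = 0.000387), or by 0.16 on the deposited values (adjusted p = 0.0265), and was in the floor band in MDA-MB-231 cells. S100P and S100A5 were named after their values were seen.

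Receptors bind the S100 proteins that cells release. Of 7 receptor genes 4 fell in MDA-MB-231 cells, where 11.7% of all rows fell, and 1 fell in SKOV3 cells, where 7.11% did, none rose, and AGER, the best known of them, was in the floor band on all arrays. BSG (basigin), a receptor for S100A9, fell in both lines, from 9.75, 9.97 and 10.06 to 9.40, 9.36 and 9.38 in MDA-MB-231 cells (-0.55, SE 0.0919, limma adjusted p = 0.00240) and from 10.41 and 10.39 to 9.88, 9.63 and 9.94 in SKOV3 cells (-0.58, SE 0.103, limma adjusted p = 0.00604). Without either SKOV3 control array the SKOV3 fall was just not called (adjusted p = 0.0511 and 0.0507). The others that fell in MDA-MB-231 cells were TLR4, MCAM and NPTN, named after their values were seen, by 0.219, 0.126 and 0.507. TLR4 and MCAM were near the floor band, with means of 7.64 and 7.47 in controls and 7.42 and 7.34 with miR-365a-3p. TLR4 was called under 13 of 19 alternatives, and without replicate 1 or 3 of the MDA-MB-231 miR-365a-3p arrays its adjusted p was 0.0884 and 0.0608. MCAM was not called without the second MDA-MB-231 control array (adjusted p = 0.0537). NPTN was called under 15 of 19, and was not called without the first MDA-MB-231 miR-365a-3p array (adjusted p = 0.0660) or without replicate 1 or 3 of the MDA-MB-231 control arrays (adjusted p = 0.0608 and 0.0747).

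Of 25 genes for intracellular binding partners, MDA-MB-231 cells had 4 that rose and 7 that fell, and SKOV3 cells had 3 that rose and 4 that fell, with medians of -0.02 and -0.015. Over all rows 14.4% rose and 11.7% fell in MDA-MB-231, and 7.25% and 7.11% in SKOV3. AHNAK, a very large scaffold that binds the complex of S100A10 and annexin A2, fell from 8.72, 8.83 and 9.08 to 7.53, 7.50 and 7.45 in MDA-MB-231 cells (-1.38, SE 0.0811, limma adjusted p = 1.38e-05) and from 9.55 and 9.42 to 7.64, 7.56 and 7.59 in SKOV3 cells (-1.89, SE 0.0907, limma adjusted p = 9.57e-06). ANXA2, the direct partner of S100A10, was at 12.92, 12.91 and 13.10 in MDA-MB-231 controls and at 12.49, 12.63 and 12.77 with miR-365a-3p. The log2 fold change was -0.35 (SE 0.0787, limma adjusted p = 0.0108), and it was -0.01 on the deposited values (adjusted p = 0.949) and 0.02 with arrays centred on their medians (adjusted p = 0.885). In SKOV3 cells ANXA2 was at 12.52 on both control arrays and at 12.44, 12.55 and 12.39 with miR-365a-3p, a difference of -0.07 (limma adjusted p = 0.791). S100A10 mRNA thus fell on arrays where ANXA2 mRNA moved little or not past the test.

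ANXA1, the partner of S100A11, rose in MDA-MB-231 cells, from 12.36, 12.63 and 12.27 to 13.22, 13.16 and 12.94 (0.69, SE 0.119, limma adjusted p = 0.00275), and in SKOV3 cells it differed by 0.42 (limma adjusted p = 0.0733). The SKOV3 difference depended on the scaling. It was called on the deposited values (0.648, adjusted p = 0.00809) and with arrays centred on their medians (0.685, adjusted p = 0.00693), and not with cyclic loess (0.242, adjusted p = 0.231). PLAT, tissue plasminogen activator, fell in MDA-MB-231 cells from 9.84, 9.59 and 9.67 to 9.26, 9.22 and 9.25 (-0.455, limma adjusted p = 0.000873). In SKOV3 cells PLAT rose from 7.49 and 7.48 to 7.84, 7.73 and 7.90 (0.335, limma adjusted p = 0.0133), not called on the deposited values (adjusted p = 0.148) or without either SKOV3 control array (adjusted p = 0.0932 and 0.109). MYH9, the heavy chain of the myosin that S100A4 binds, changed by -3.67 and -3.42 in the respective lines (limma adjusted p = 1.02e-05 and 4.64e-05). IQGAP1, a scaffold bound by S100P, changed by -1.67 and -1.10 (limma adjusted p = 5.92e-05 and 0.00173).

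Of the partners of S100A6, SUGT1 and CACYBP rose and ANXA11 fell in both lines. SUGT1 rose from 8.53, 8.81 and 8.67 to 10.22, 10.13 and 10.07 in MDA-MB-231 cells (1.47, SE 0.163, limma adjusted p = 0.000297) and from 8.59 and 8.55 to 10.33, 9.93 and 9.57 in SKOV3 cells (1.375, SE 0.182, limma adjusted p = 0.00150). CACYBP rose by 0.60 and 0.94 (limma adjusted p = 0.00598 and 0.00217), the first not called on the deposited values (adjusted p = 0.0619). ANXA11, another annexin bound by S100A6, changed by -0.29 and -0.27 (limma adjusted p = 0.00139 and 0.00690), the second not called without the first SKOV3 control array (adjusted p = 0.0698).

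**Figure D4:**
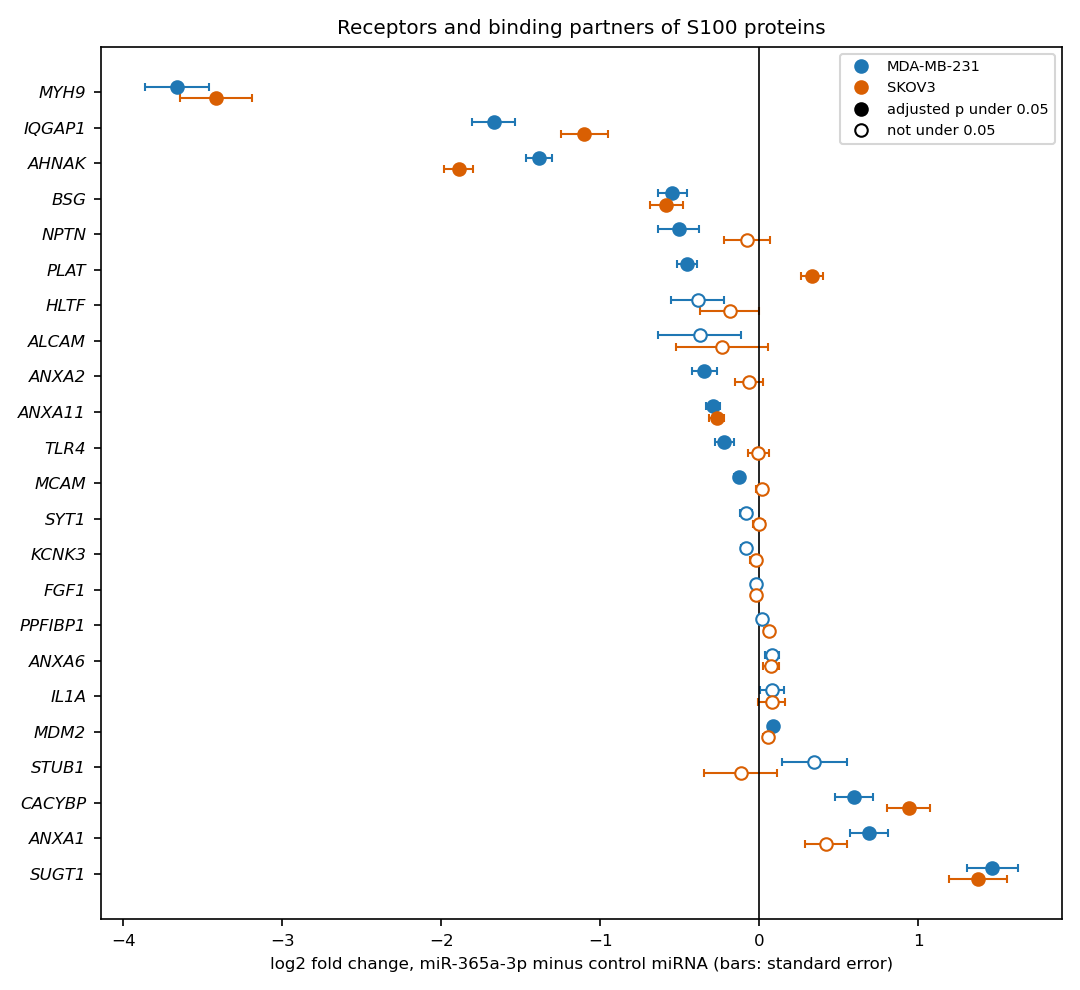
Log2 fold changes, miR-365a-3p minus control miRNA, of 23 receptor and partner genes above the floor band on at least 1 array, in MDA-MB-231 (blue) and SKOV3 (orange) cells with standard errors; filled points have a limma adjusted p under 0.05. MYH9, IQGAP1 and AHNAK lie far left in both lines, SUGT1 (1.47 and 1.375) lies farthest right, and ANXA2 lies at -0.35 in MDA-MB-231 and -0.07 in SKOV3 cells.

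Other small EF-hand proteins, such as calmodulins, centrins and myosin light chains, have the fold of the S100 family. Of 36 symbols listed for such genes, with both CHP1 and CHP among them, 33 had a row. MDA-MB-231 cells had 7 that rose and 6 that fell, and SKOV3 cells had 5 that rose and 3 that fell, with medians of 0.022 and 0.015, beside the same shares over all rows (14.4% and 11.7%, 7.25% and 7.11%). CETN2 and PDCD6 rose and CALM3, CHP and EFHD1 fell in both lines. The SKOV3 rises of CETN2 and PDCD6 were not called without either SKOV3 control array (adjusted p from 0.0944 to 0.326), with the CETN2 call held under 8 of 19 alternatives, and the SKOV3 fall of CHP was not called without the second (adjusted p = 0.0616). Of the calmodulin genes, which encode the same protein, CALM3 changed by -1.27 and -0.84 in the respective lines (limma adjusted p = 0.00238 and 0.0494). Its SKOV3 call held under 6 of 19 alternatives and was lost without either SKOV3 control array (adjusted p = 0.230 and 0.203). EFHD1, a mitochondrial calcium sensor, changed by -1.08 and -0.44 (limma adjusted p = 4.21e-06 and 0.00111).

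S100 proteins are small, and brighter genes of small-protein and of large-protein families, those with a mean above 8, differed in their response. In 253 genes of small-protein families with a mean above 8, such as ribosomal and respiratory chain subunits, the median log2 fold change was 0.579 in MDA-MB-231 and 0.433 in SKOV3 cells. In the 17 genes of large-protein families with a mean above 8 it was -1.94 and -1.41. Over all listed genes of these families with no filter, it was 0.509 and 0.387 for 288 small-protein genes and -0.016 and -0.017 for 111 large-protein genes, of which 57 were above the floor band on any array. A filter on the mean also keeps rows that are high in controls. The lists were drawn up with earlier results of these data known. The median of the small minus that of the large families, again over genes with a mean above 8, was 3.00 to 3.36 with miR-365a-3p and 0.14 to 0.73 in controls in MDA-MB-231 cells, and 2.64 to 3.31 against 0.88 and 0.89 in SKOV3 cells. The large AHNAK, MYH9 and IQGAP1 fell, while S100A10 and S100A11, which are small, fell as well, and the other 8 members were not called as falling in either line. The part of this balance in the S100 values was not tested.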

How the data were processed

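Labelled cRNA from MDA-MB-231 and SKOV3 cells was hybridized to Illumina HumanHT-12 v4 arrays. Quantile normalization was done by the authors in lumi, and the deposited table holds 1 log2 value per symbol and array. The transformation (log2 or variance-stabilizing), background handling and combining of probes are not given in the sources used here, so low signals may be compressed. The 11 deposited columns did not share a distribution and were quantile normalized with limma 3.58.1 in R 4.3.3. A model with 4 group means was fitted to 31325 rows (lmFit, eBayes), with Benjamini-Hochberg adjustment over the whole table and a threshold of 0.05.

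The members and lists were chosen with earlier results of these data known. Genes called in both lines are named from the lists, except those of the small-protein and large-protein families. Up to 4 more that bind a member or define a cell type are named, and others only where stated or where lines differed. Alternatives were deposited values, median centring, cyclic loess, separate fits, a replicate block, a filter on dim rows, an intensity trend, array weights and each array left out. Tested on simulated data, with 200 of 31325 rows changed by 1 on the log2 scale, the fit recovered 95.5% in MDA-MB-231 and 96.0% in SKOV3 cells, with 15 and 7 false calls. In the fit to the arrays 14.4% of all rows rose and 11.7% fell in MDA-MB-231, and 7.25% and 7.11% in SKOV3 cells. Recovery and false calls with so many changed rows, or with a 75th percentile that differs by treatment, were not tested. The number of arrays limits precision. A planned list by protein length and a search for seed sites were not run, since no protein or transcript sequences were used here. A listed partner gene is in the counts and is not reported here by name.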

Additional observations from a re-analysis of the deposited data

Results flagged for a closer look

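The response to miR-365a-3p, tested as a difference between cell lines (MDA-MB-231 minus SKOV3, limma with Benjamini-Hochberg adjustment), passed the threshold for 5 genes named here, none of them among the 10 S100 genes. S100A5 differed by -0.38 (adjusted p = 0.00627), not called on the deposited values (adjusted p = 0.139). S100P differed by 0.66 (adjusted p = 0.0408), and this call held under 8 of 18 alternatives. It was lost without the second MDA-MB-231 miR-365a-3p array (adjusted p = 0.0668) or without any single MDA-MB-231 control or SKOV3 array (adjusted p = 0.0552 to 0.188). PLAT, which fell in one line and rose in the other, differed by -0.79 (adjusted p = 0.00369), not called with the replicate number as a block (-0.75, adjusted p = 0.0660). EFHD1 differed by -0.64 (adjusted p = 0.00324), from control means of 8.49 in MDA-MB-231 and 7.77 in SKOV3 cells. With miR-365a-3p both means were in the floor band, at 7.41 and 7.33, which limits how far each could fall. PAX8, a transcription factor of the Müllerian lineage, differed by 0.67 (adjusted p = 9.61e-05). It fell in SKOV3 cells from a mean of 8.18 to 7.48 (-0.70). In MDA-MB-231 cells its means were in the floor band, at 7.40 in controls and 7.37 with miR-365a-3p, where a like fall could not be seen. For EFHD1 and PAX8 a difference in response thus cannot be told apart from the effect of the floor.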

How the results depend on the processing

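The 2 falling genes were called in both lines under all alternatives. The number of members rising in MDA-MB-231 cells was 0 on deposited values and 1 with median centring or each line fitted alone, and 1 to 3 with an array left out. In SKOV3 cells it was 2 with cyclic loess, the filter on dim rows or the intensity trend, and 1 to 2 with an array left out. The number of members whose response differed between lines was 1, S100A2, on deposited values, with median centring, the filter or array weights, and 0 to 1 with an array left out. Among the 10 members, signs changed only in differences that were not called. In MDA-MB-231 cells S100A2 was -0.043 on deposited values and -0.011 with centring, and S100A6 was -0.006 with cyclic loess. In SKOV3 cells S100A4 was -0.226 and S100A6 -0.089 with cyclic loess, and S100A14 was -0.092 on deposited values and -0.054 with centring. With an array left out, S100A6 ran from -0.064 to 0.385 and S100A16 from -0.313 to 0.013 in MDA-MB-231 cells, and S100A4 from -0.017 to 0.039 and S100A6 from -0.033 to 0.171 in SKOV3 cells. Deviations of same-numbered arrays from their group means had r = -0.126, 0.0386 and 0.201 in MDA-MB-231 and 0.0409 and -0.0654 in SKOV3 cells across 12530 rows. Differently numbered MDA-MB-231 arrays ran from -0.438 to 0.321. With 2 SKOV3 control arrays the deviations are mirror images, so their signs are forced. These values cannot settle whether arrays were paired, and the numbers were not taken as pairs. With the replicate number as a block the counts of members were 2 rising and 2 falling in MDA-MB-231 and 1 and 2 in SKOV3 cells, and S100A4 in SKOV3 cells was -0.018. Causes were not tested. S100A8 has no value under the filter, and values near the floor limit S100A8, S100A9 and S100A14.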
